A study of Homo sapiens with 9 samples.

Results

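A set of 10 genes, called luminal genes here as a short name, was followed across all 9 libraries. It holds the luminal keratins KRT8, KRT18 and KRT19 and the epithelial adhesion genes EPCAM and CDH1. Its transcription factors are FOXA1, GATA2, GRHL2, HOXB13 and SPDEF. The 10 genes were chosen by name, and each matched 1 row of the 36650 in the deposited table, so 10 of 36650 genes are described. All 10 were among the 13231 genes tested, which had at least 1 transcript per 1000000 (TPM) in at least 3 libraries.

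The libraries hold mRNA of the human prostate cancer line 16D CRPC (castration-resistant). Every group shared a lentiviral CAS9 knockout of OGDHL, which encodes a relative of the mitochondrial 2-oxoglutarate dehydrogenase, followed by 6 weeks of adaptation to the androgen receptor blocker enzalutamide and upkeep in 10 µM of it. The knockout cells then received lentivirus with eGFP, with full-length OGDHL that resists the guide, or with a guide-resistant OGDHL that lacks the mitochondrial targeting sequence (dMTS), and each group has 3 libraries. No unedited or untreated group was analysed here. The labels do not say whether replicates were separate cultures, so each p-value reflects only how much these libraries vary.

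Luminal cells line the prostate gland and carry a cytoskeleton of simple keratins, in which type II keratins such as keratin 8 pair with type I keratins such as keratins 18 and 19. E-cadherin, encoded by CDH1, holds neighbouring epithelial cells together, and EPCAM is a second surface adhesion molecule. FOXA1 is a pioneer factor that opens chromatin for the androgen receptor. GATA2 also cooperates with the receptor, HOXB13 and SPDEF mark the prostate luminal lineage, and GRHL2 maintains epithelial gene expression.

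OGDHL stood at 1.12 to 1.26 TPM with eGFP, 165 to 270.5 TPM with the full-length form and 76.1 to 175 TPM with dMTS, so both OGDHL groups stood apart from eGFP. The full-length and dMTS ranges overlapped, so this level does not tell which form a library carries. Estimated depth was 86.3 to 121 M reads (M, 1000000). One library, dMTS replicate 2, stands apart in scale: mitochondrially encoded genes took 54.9% of its TPM and 62.1% to 66.0% of TPM in the other 8, and its median log2 ratio to the genes' geometric means was 0.28. As deposited it was the highest dMTS library for 10 of the 10 luminal genes, and the highest of all 9 libraries for 7 of them. Each value is therefore given as deposited and after rescaling, in which every library was divided by its median ratio over the tested genes. After rescaling dMTS replicate 2 was the highest of the 9 libraries for 1 of the 10 genes and the lowest for 2, KRT19 and GATA2.

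Markers of other cell types were low in TPM, which here were divided by genomic span, introns included, so long genes come out low. By estimated reads these markers were not all low. Of the basal genes, ITGA6 and DST averaged 3621 and 1965 reads per library. KRT14 and TP63 averaged 62.2 and 3.22, beside 593 for KRT19. The mesenchymal genes FN1 and ITGA5 averaged 7640 and 2295 reads, and the fibroblast marker COL1A1 averaged 1574. The highest endothelial and immune averages were 136 for VWF and 34.8 for CD68. All 14 basal genes found in the table, KRT14, KRT15 and TP63 among them, stayed under 1 TPM in every library, as did 4 of 4 endothelial and 4 of 4 immune markers. Of 16 mesenchymal genes, 13 stayed under 1 TPM, and none of the 3 that could be tested was called. The 6 fibroblast markers summed to 3.31 to 3.41 TPM with eGFP, 3.18 to 3.21 with full-length and 2.54 to 2.84 with dMTS, most of it COL1A1 (3.07, 2.90 and 2.42 TPM on average), and their part in the results was not tested. No marker of these lists that was found in the table was at 0 in all 9 libraries. KRT5 of the basal list and CD3E of the immune list had no row in it.

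The promoters of GATA2, which had the largest rescaled change with dMTS among the 10 genes, and of FOXA1, which is set against it in a ratio, are shown for orientation as the 250 bases before each start annotated by RefSeq (GRCh38.p14), 5′ to 3′ on the gene's strand. GATA2 has a start at the outer end of the gene and one 4671 bases further in, and the table counts reads of both together. The FOXA1 start lies 810 bases inside the deposited span of that gene, so its window lies within the span. The regions are chr3:128493202-128493451 and chr3:128488531-128488780 for GATA2 and chr14:37595250-37595499 for FOXA1, all on the minus strand. Capitals mark matches, on either strand and none of them overlapping, to 5 short promoter motifs whose letters are given after the sequences.
GATA2 outer start: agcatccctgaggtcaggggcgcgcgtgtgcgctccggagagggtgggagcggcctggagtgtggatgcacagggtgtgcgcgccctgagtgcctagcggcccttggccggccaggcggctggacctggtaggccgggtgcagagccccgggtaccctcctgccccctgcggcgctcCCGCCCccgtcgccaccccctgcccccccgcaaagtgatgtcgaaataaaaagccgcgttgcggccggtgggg
GATA2 inner start: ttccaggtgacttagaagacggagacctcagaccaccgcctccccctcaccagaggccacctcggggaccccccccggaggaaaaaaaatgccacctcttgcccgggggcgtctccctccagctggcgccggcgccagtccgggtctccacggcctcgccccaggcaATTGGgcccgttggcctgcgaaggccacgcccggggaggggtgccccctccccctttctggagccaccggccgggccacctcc
FOXA1 start: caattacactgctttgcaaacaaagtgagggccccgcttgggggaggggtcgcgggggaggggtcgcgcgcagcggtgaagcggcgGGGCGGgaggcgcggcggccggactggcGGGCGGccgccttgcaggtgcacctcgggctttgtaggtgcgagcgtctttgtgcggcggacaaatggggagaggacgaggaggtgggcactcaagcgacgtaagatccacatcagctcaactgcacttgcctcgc
A GC box, the letters bound by Sp1-type factors, was searched as GGGCGG. The box of the nuclear factor Y family was searched as its name spells it, CCAAT. The TATA box of the core promoter was searched with the letters TATAAA. The core of the GATA family was searched as GATAA where the base before it was either adenine or thymine. The core of the forkhead family was searched as TGTTTAC, and also with adenine in place of the guanine. The outer GATA2 region held 1 GC box, the inner one 1 CCAAT box and the FOXA1 region 2 GC boxes. No GATA or forkhead core in the letters searched lay in these 3 windows, and other spellings of these cores were not searched. The SPDEF window, not shown, held 1 forkhead core and 1 CCAAT box, and the KRT8 window held none of the 5 motifs. Among 35116 RefSeq promoter windows of this length, 42.6% held a GC box, 32.0% a CCAAT box, 10.7% a TATA box, 14.6% a GATA core and 5.27% a forkhead core. RefSeq windows were at hand for 4 of the 10 genes.

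Levels of different genes cannot be read from the table directly, because its TPM were divided by genomic span, introns included. KRT8 shows the size of this effect. Its row runs from 52897187 to 52949954 on chromosome 12 (GRCh38, minus strand, ENSG00000170421), a span of 52768 bases of which exons in GENCODE release 29 cover 13%. Of its 17 annotated transcripts, 9 start more than 20 kb inside that span. KRT18 lies beside it from 52948871 to 52952906 on the plus strand (ENSG00000111057), with a span of 4036 bases that is 79.7% exonic. The 2 rows share 1084 bases on opposite strands. The library kit keeps strand, but whether the counting used it is not given in the sources used here.

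Estimated reads per kilobase of exon and per 1000000 reads leave introns out of the length. The exon length joins the exons of all annotated transcripts of a gene, so it can exceed the length of any single transcript. For KRT8 it was 6881 bases over 17 transcripts, and for KRT18 3218 bases over 7. The order of the means over 9 libraries was FOXA1 (111), HOXB13 (96.7), CDH1 (65.3), EPCAM (63.0), KRT18 (55.1), GATA2 (43.4), GRHL2 (27.0), SPDEF (16.4), KRT8 (13.4) and KRT19 (2.43). Ranges over the libraries overlapped between the neighbours CDH1 and EPCAM and between EPCAM and KRT18. CDH1 was above EPCAM in 7 of 9 libraries, and each other gene was above the next in 9 of 9. GRHL2, the lowest of the 10 in TPM at 2.44 to 3.55, ranked seventh by exon length, since exons make up 3.42% of its 177288 bases on chromosome 8. Reads from introns, if counted, are part of these values, and reads on pseudogene rows are not. The order therefore holds for this choice of length only, and whether KRT8 would keep its low rank with transcript lengths was not tested.

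**Figure D1:**
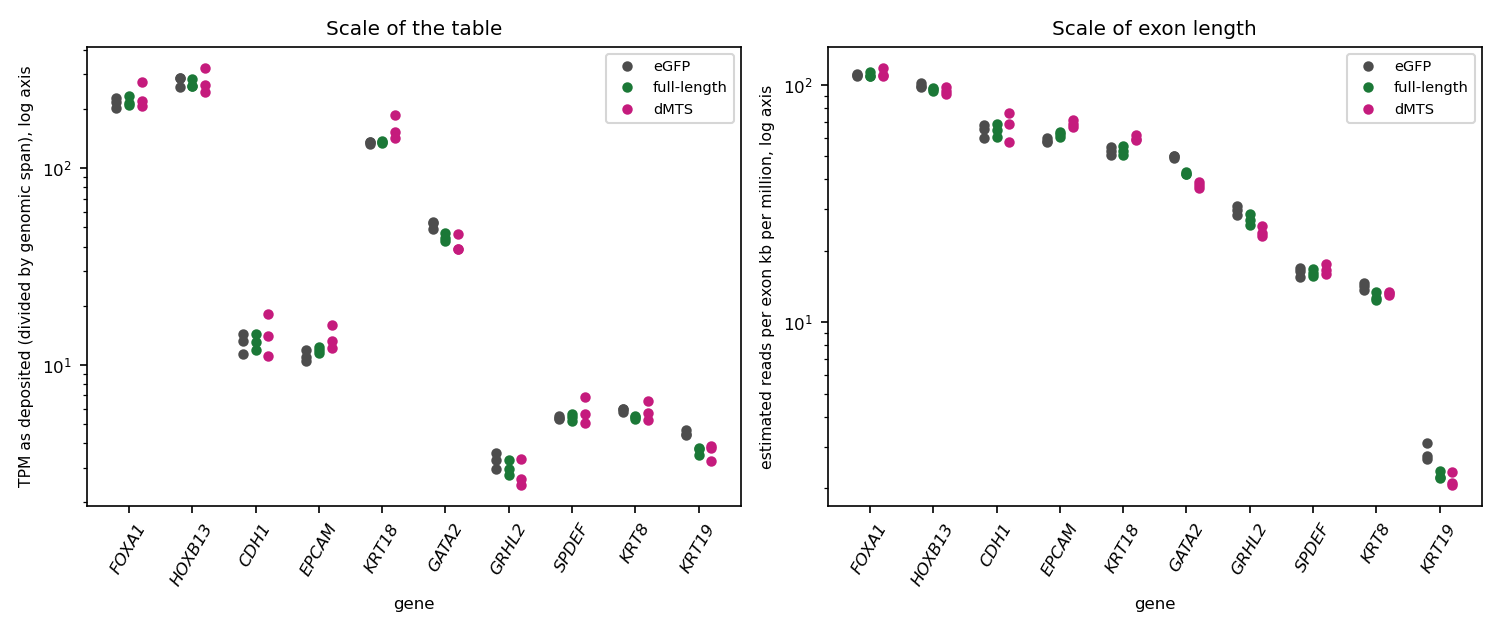
Level of each gene in each library, as deposited TPM (left, log axis) and as estimated reads per kilobase of exon per 1000000 reads (right, log axis); each point is 1 library, coloured by group. KRT8 lies far below KRT18 on the left and closer to it on the right, and FOXA1 and HOXB13 lead on both.

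The keratins have processed copies elsewhere in the genome, so some of their reads cannot be placed with certainty. The table lists 36 KRT8, 49 KRT18 and 1 KRT19 pseudogene rows. Their summed estimated reads came to 24% ± 0.848 of those of KRT8, 7.37% ± 0.398 of those of KRT18 and 0.767% ± 0.662 of those of KRT19 (SD, n = 9 libraries). For KRT8 the share was 22.9% to 23.2% with eGFP, 23.8% to 25.5% with full-length and 24.2% to 24.9% with dMTS, and the eGFP libraries lay below the others. None of the 14 tested pseudogenes was called in any comparison with eGFP. The most abundant copy, KRT8P3, was at 15.4 ± 0.511, 14.3 ± 0.788 and 15.8 ± 1.82 TPM with eGFP, full-length and dMTS, and KRT8P12 at 13.5 ± 0.602, 13.8 ± 0.472 and 14.4 ± 0.995 TPM (SD, n = 3 each).

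Against eGFP, the genes went in different directions with dMTS OGDHL. After rescaling GATA2, GRHL2 and KRT19 fell and EPCAM rose, while FOXA1, SPDEF, CDH1, HOXB13, KRT8 and KRT18 were not called. That is 4 of 10 genes, 1 higher and 3 lower, where 9.39% of all tested genes were called (3.33% higher, 6.06% lower). As deposited 0 of 10 passed limma's Benjamini-Hochberg adjusted threshold of 0.05, against 0.514% of all genes (0.0529% higher, 0.461% lower). Still, 4 of the 10 had an unadjusted p under 0.05, as did 10.9% of all genes. The median log2 fold change of the 10 genes was 0.04 as deposited and -0.03 rescaled, beside 0.06 and 0.01 over all tested genes. As deposited the libraries of dMTS and eGFP were fully apart for 4 of 10 genes, KRT18 and EPCAM above and KRT19 and GATA2 below, where the share of all genes was 11.8% (5.24% above, 6.58% below). Rescaled they were apart for 6 of 10, with GRHL2 and HOXB13 also below, where the share was 32.4% (15.2% above, 17.2% below).

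With full-length OGDHL no luminal gene was called against eGFP. This held as deposited, with 0.00756% of all genes called and 2 of the 10 at an unadjusted p under 0.05 (1.97% of all genes), and rescaled, with 0.0302% called (0.0151% in each direction) and 5 of the 10 at an unadjusted p under 0.05 (9.18% of all genes). Voom on estimated reads also called 0 of 10, while array weights on rescaled values called 6 of 10 along with 17% of all genes. As deposited full-length and eGFP were fully apart for KRT8, KRT19 and GATA2, 3 of 10, all below, against 11.5% of all genes (2.08% above, 9.39% below). Rescaled they were apart for 5 of 10, EPCAM above and KRT8, KRT19, GATA2 and GRHL2 below, against 17.8% (7.95% above, 9.8% below). The median log2 fold change was -0.02 under both scalings, beside 0.00 over all genes. Both comparisons use the same 3 eGFP libraries, so their values are not independent.

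Between the 2 forms of OGDHL no luminal gene was called by limma, with 0 of 13231 genes called as deposited and 0.00756% rescaled. At an unadjusted p under 0.05 there were 1 of the 10 genes as deposited (5.42% of all genes) and 4 rescaled (15% of all genes). Voom called 0 of 10, and array weights on rescaled values called 4 along with 30.4% of all genes. As deposited KRT18 was the 1 gene whose dMTS libraries lay fully above full-length, where 8.92% of all genes were apart (4.7% above, 4.22% below). Rescaled KRT18 and EPCAM lay above and GATA2 and GRHL2 below, 4 of 10, where 17.4% were apart (7.94% above, 9.46% below). KRT18 differed by 0.17 rescaled (95% interval 0.06 to 0.28, limma adjusted p = 0.194).

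**Figure D2:**
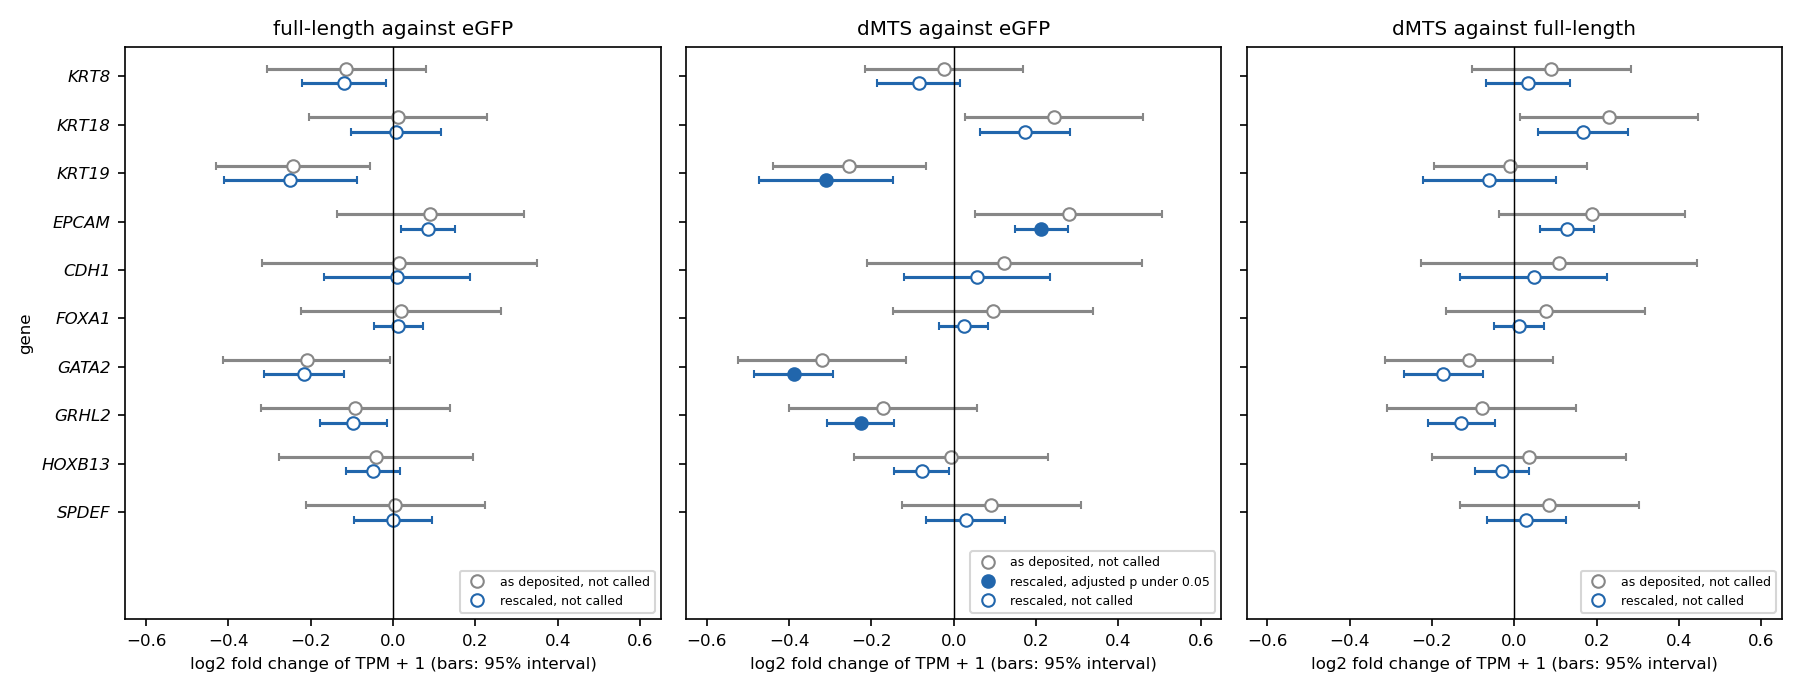
Log2 fold change of TPM + 1 (horizontal axis) of each gene (vertical axis) in the 3 comparisons, as deposited (grey) and rescaled (blue), with 95% intervals; filled points had an adjusted p under 0.05. Filled points occur only in the rescaled comparison of dMTS with eGFP, for KRT19, EPCAM, GATA2 and GRHL2.

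Among the keratins, KRT19 was the one called. This type I keratin, on chromosome 17 from 41523617 to 41528308 (ENSG00000171345), stood at 4.46, 4.42 and 4.68 TPM with eGFP in replicates 1 to 3. It stood at 3.79, 3.47 and 3.73 TPM with full-length and at 3.24, 3.88 and 3.796 TPM with dMTS. All 6 OGDHL libraries lay below all 3 eGFP libraries, and the 2 OGDHL groups overlapped. After rescaling the mean went from 4.61 ± 0.459 to 3.52 ± 0.322 TPM with dMTS (SD, n = 3), which is -0.31 on the log2 scale of TPM + 1 (SE 0.07, limma adjusted p = 0.0357). With full-length it was 3.71 ± 0.151 TPM (-0.25, SE 0.07, limma adjusted p = 0.420). At this level the added 1 makes the fold change smaller than the ratio of the levels; voom on rescaled estimated reads gave -0.38 for dMTS. The KRT19 call was kept without eGFP replicate 1 or dMTS replicate 1 and lost without any one of the other 7 libraries, with adjusted p up to 0.104.

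KRT18 lay on the other side of eGFP from KRT19 with dMTS. It stood at 136, 136 and 132 TPM with eGFP, 135, 138 and 136 with full-length and 143, 185 and 154 with dMTS. Each dMTS library lay above all 6 others. After rescaling the means were 137 ± 7.47, 138 ± 6.19 and 155 ± 1.62 TPM (SD, n = 3 each), a log2 difference between dMTS and eGFP of 0.17 (SE 0.05) that missed the threshold (limma adjusted p = 0.0594). Voom on rescaled estimated reads called it (adjusted p = 0.0452), and so did limma on TPM that left OGDHL and the mitochondrial transcripts out of the total (adjusted p = 0.0317). Rescaled limma fits that left out 1 library called it in 0 of 9, with adjusted p from 0.0608 to 0.171. Of 32 settings run, 4 called it.

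KRT8, the type II partner of KRT18, did not follow it. Its levels were 6.01, 5.99 and 5.80 TPM with eGFP, 5.29, 5.49 and 5.44 with full-length and 5.25, 6.55 and 5.72 with dMTS. The full-length libraries all lay below the eGFP libraries, and the dMTS libraries lay on both sides of them. Rescaled log2 fold changes were -0.12 (95% interval -0.22 to -0.02) with full-length and -0.09 (-0.19 to 0.02) with dMTS, with limma adjusted p of 0.488 and 0.246. Of the 28 KRT rows in the table, 24 stayed under 1 TPM in every library.

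The ratio of 2 genes within a library does not depend on how that library is scaled. The TPM ratio of KRT8 to KRT18 was 0.0441, 0.0439 and 0.0439 with eGFP, 0.0393, 0.0397 and 0.0402 with full-length and 0.0366, 0.0353 and 0.0372 with dMTS. The 3 groups did not overlap: eGFP was highest and dMTS lowest. On the log2 scale the ratio was 0.15 lower with full-length and 0.27 lower with dMTS than with eGFP. The SD of the log2 ratio was 0.004 with eGFP, 0.016 with full-length and 0.037 with dMTS. The ratio of KRT19 to KRT18 had the same order, from 0.0327, 0.0324 and 0.0354 with eGFP through 0.0281, 0.0251 and 0.0275 with full-length to 0.0226, 0.0209 and 0.0247 with dMTS. For every pair of groups and both ratios the exact two-sided permutation p was 0.1, the smallest that 3 against 3 libraries can give. Both ratios divide by KRT18, so they are not independent. How many other gene pairs separate the groups was not counted. Among single rescaled genes 32.4% were apart between dMTS and eGFP, 17.8% between full-length and eGFP and 17.4% between dMTS and full-length.

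**Figure D3:**
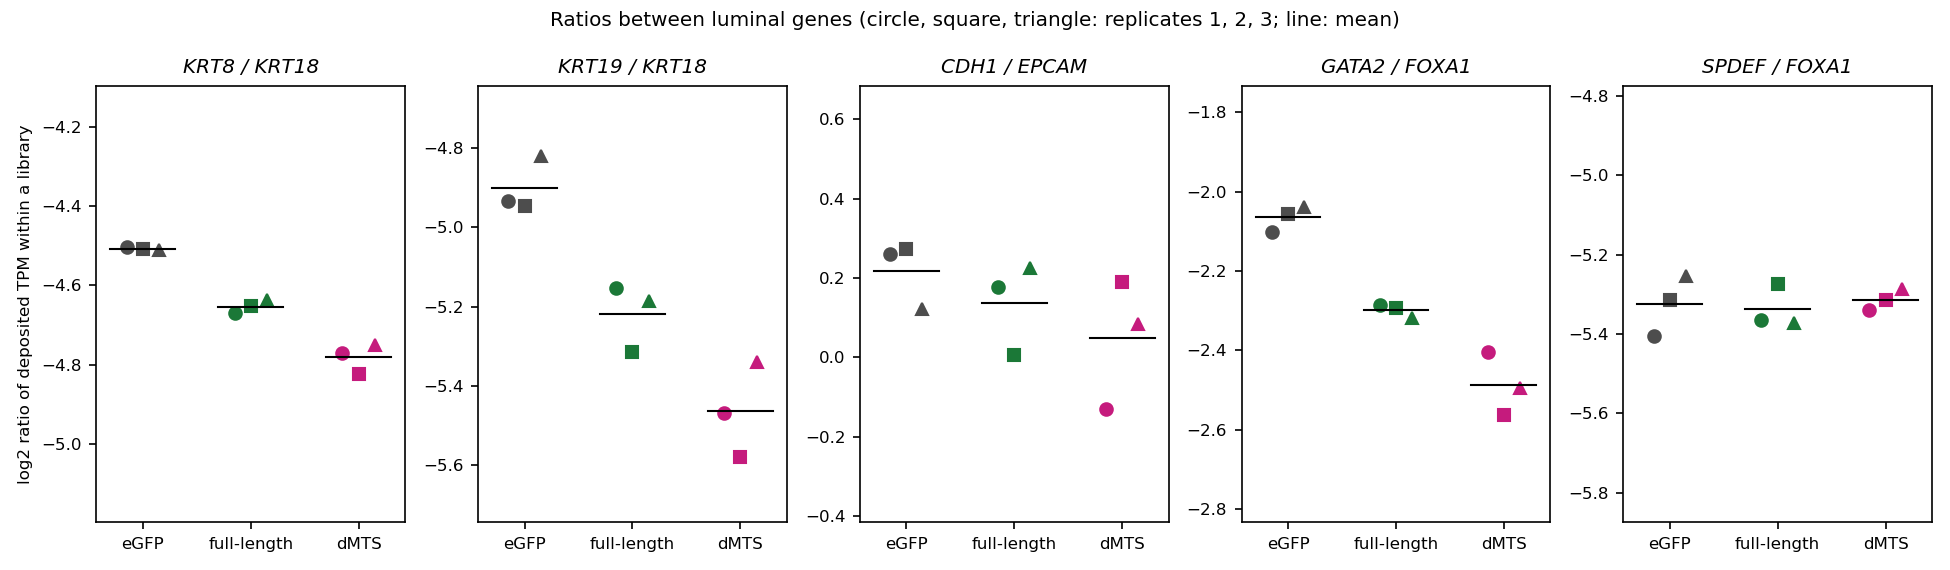
Log2 ratio of the deposited TPM of 2 genes within each library (vertical axes, all spanning the same range) by group; each point is 1 library and lines are means. KRT8/KRT18, KRT19/KRT18 and GATA2/FOXA1 separate the 3 groups without overlap, and CDH1/EPCAM and SPDEF/FOXA1 overlap.

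Of the adhesion genes EPCAM rose with dMTS after rescaling and CDH1 was not called. EPCAM (chromosome 2, 47345158 to 47387601, ENSG00000119888) stood at 11.97, 10.98 and 10.5 TPM with eGFP, 11.5, 11.9 and 12.4 with full-length and 12.2, 16.0 and 13.2 with dMTS. As deposited dMTS lay above eGFP without overlap but overlapped full-length. Rescaled, the 3 groups separated at 11.3 ± 0.222, 12.1 ± 0.295 and 13.3 ± 0.114 TPM (SD, n = 3 each). The log2 fold change with dMTS was 0.28 (SE 0.10, limma adjusted p = 0.325) as deposited and 0.21 (SE 0.03, limma adjusted p = 0.0103) rescaled. With full-length the rescaled value was 0.08 (SE 0.03, limma adjusted p = 0.457), and between dMTS and full-length 0.13 (SE 0.03, limma adjusted p = 0.178). The rescaled dMTS call was lost without eGFP replicate 2 (limma adjusted p = 0.0617) or dMTS replicate 3 (0.0560).

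CDH1 (chromosome 16, 68737292 to 68835537, ENSG00000039068) had the widest spread of the 10 genes. Its levels were 14.3, 13.3 and 11.4 TPM with eGFP, 13.01, 11.9 and 14.4 with full-length and 11.1, 18.2 and 14.0 with dMTS. The groups overlapped throughout, and the within-group SD of its rescaled log2 value was 0.10, against a median of 0.07 over all genes and 0.02 for EPCAM. The rescaled difference between dMTS and eGFP had a 95% interval of -0.12 to 0.23. The ratio of CDH1 to EPCAM was 1.20, 1.21 and 1.09 with eGFP and 0.913, 1.14 and 1.06 with dMTS, which overlapped (exact permutation p = 0.2, two-sided).

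**Figure D4:**
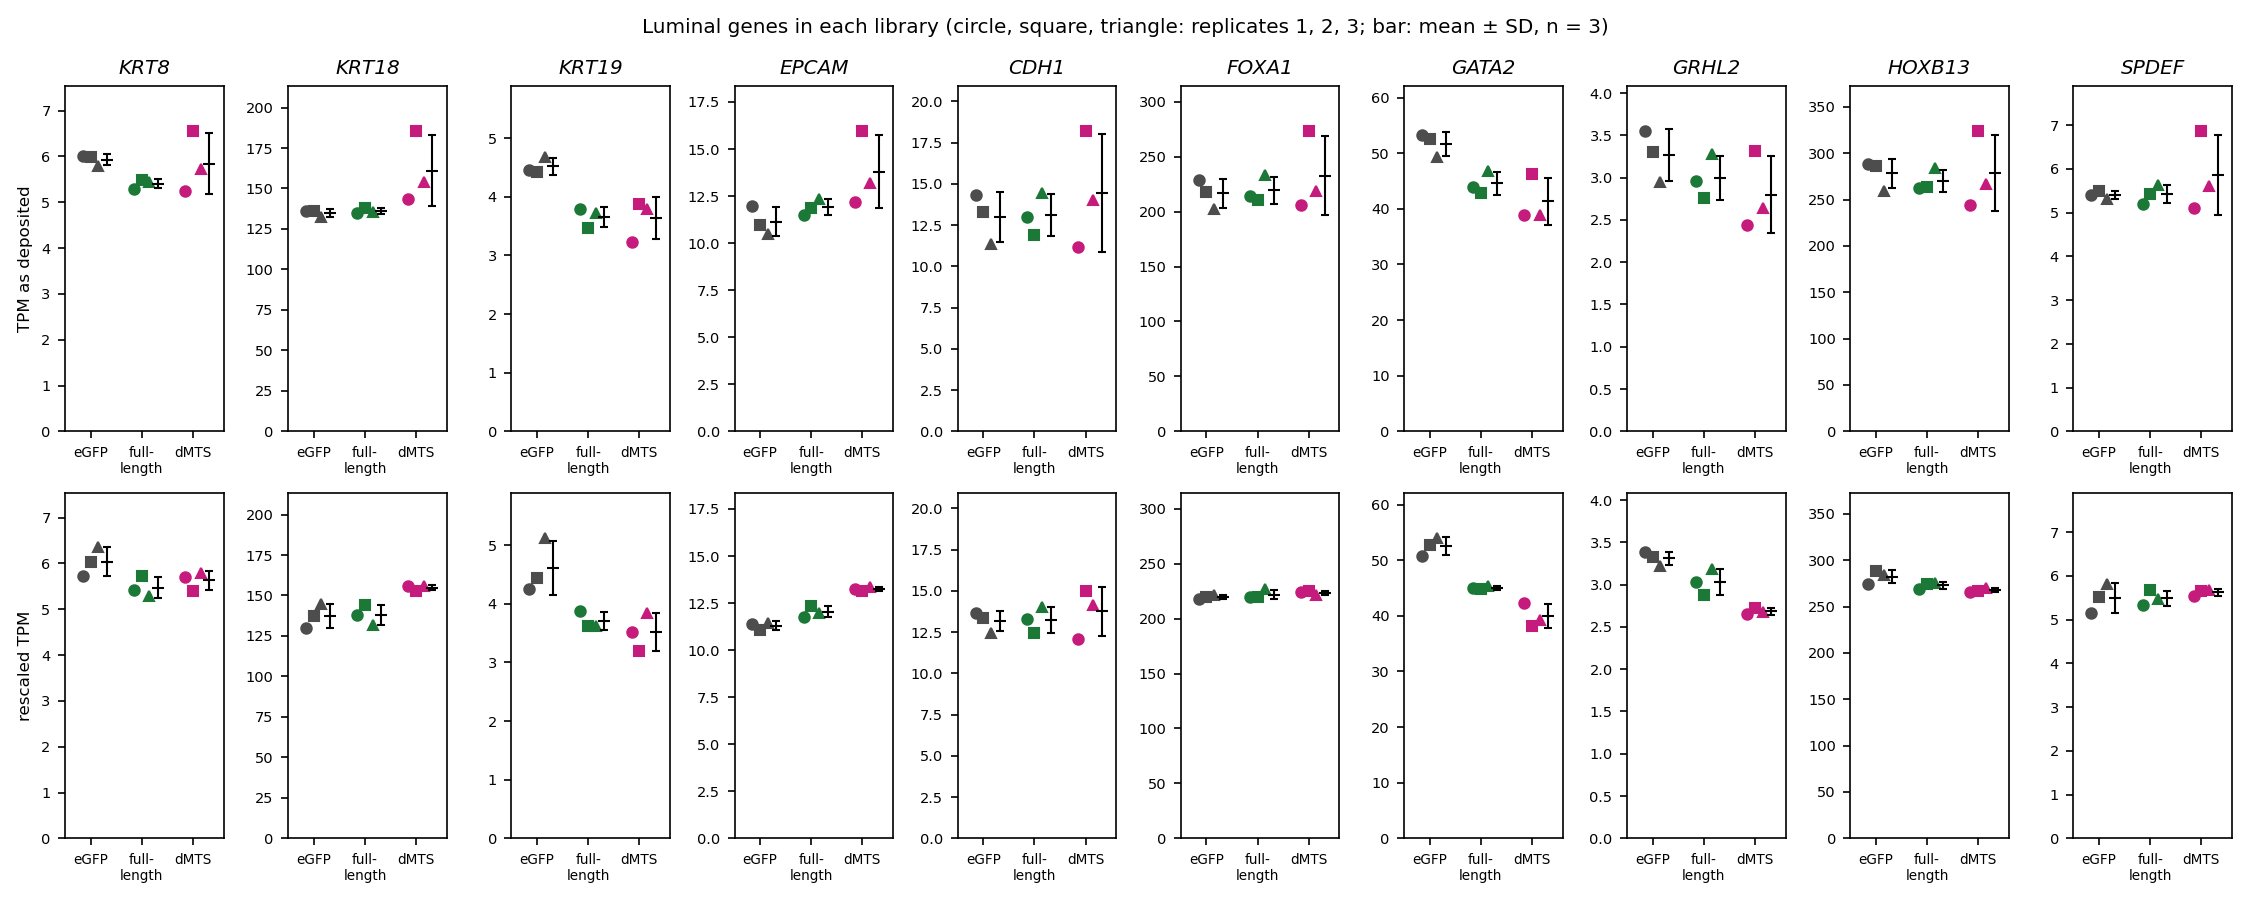
TPM of each gene in each library, as deposited (top) and rescaled (bottom), by group; symbols mark replicates 1 to 3 and bars are mean ± SD (n = 3). The square of dMTS replicate 2 is the highest dMTS point in every upper panel, and after rescaling the groups of GATA2, GRHL2 and EPCAM separate while FOXA1 stays between 218 and 227 TPM.

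GATA2 differed most among the transcription factors. The gene (chromosome 3, 128479427 to 128493201, minus strand, ENSG00000179348) stood at 53.4, 52.5 and 49.3 TPM with eGFP, 44.0, 42.9 and 46.8 with full-length and 39.0, 46.3 and 38.9 with dMTS. Every OGDHL library lay below every eGFP library already as deposited. Rescaled, the groups separated in full, at 52.6 ± 1.59, 45.1 ± 0.342 and 39.9 ± 2.16 TPM (SD, n = 3 each). The log2 fold change with dMTS was -0.32 (SE 0.09, limma adjusted p = 0.177) as deposited and -0.39 (SE 0.04, limma adjusted p = 0.00601) rescaled. The rescaled call was kept in 9 of 9 fits that left out 1 library, with adjusted p up to 0.0453. As deposited GATA2 was called without dMTS replicate 2 (-0.40, limma adjusted p = 0.0339).

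The full-length form had a smaller GATA2 difference that was not called. It was -0.22 (SE 0.04) rescaled, with a limma adjusted p = 0.247 and an unadjusted p = 0.000828. Between dMTS and full-length the rescaled difference was -0.17 (95% interval -0.27 to -0.08, limma adjusted p = 0.186), so a difference between the 2 forms was not called either. It was called without dMTS replicate 1 (-0.22, limma adjusted p = 0.0136), where 6.91% of all genes were called, and with array weights, where 30.4% were. With all 9 libraries and no weights the share was 0.00756% rescaled and 0 as deposited.

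GATA2 shares 3990 bases, 28.97% of its span, with the antisense long noncoding RNA GATA2-AS1 on the other strand. GATA2-AS1 stood at 15.8, 15.3 and 13.5 TPM with eGFP, 13.5, 13.4 and 14.7 with full-length and 11.8, 14.1 and 11.3 with dMTS. It fell with dMTS after rescaling too (log2 fold change -0.31, SE 0.04, limma adjusted p = 0.0103; as deposited adjusted p = 0.398). If the counting ignored strand, reads of the 2 genes cannot be told apart where they overlap. GATA2 had an estimated 20299 reads per library on average, and GATA2-AS1 had 6069.

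FOXA1 was the steadiest of the 10 genes once libraries were on one scale. It lies on chromosome 14 from 37589552 to 37596059 (ENSG00000129514) and stood at 229, 218 and 203 TPM with eGFP, 215, 210.4 and 234 with full-length and 206, 273 and 219 with dMTS. Rescaled means were 219.9 ± 1.86, 222 ± 4.24 and 224 ± 1.89 TPM (SD, n = 3 each), and the 95% interval of the rescaled log2 difference from eGFP was -0.05 to 0.07 with full-length and -0.04 to 0.08 with dMTS. The ratio of GATA2 to FOXA1 was 0.233, 0.240 and 0.243 with eGFP, 0.205, 0.204 and 0.2004 with full-length and 0.189, 0.169 and 0.177 with dMTS. These groups did not overlap. As rescaled FOXA1 hardly changed, the ratio largely repeats the GATA2 difference and is not a separate result. The log2 ratio was 0.23 lower with full-length and 0.42 lower with dMTS than with eGFP, with an exact two-sided permutation p of 0.1 for each pair.

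GRHL2 (ENSG00000083307) fell with dMTS after rescaling. Its levels were 3.55, 3.30 and 2.94 TPM with eGFP, 2.97, 2.76 and 3.28 with full-length and 2.44, 3.31 and 2.64 with dMTS, and all groups overlapped as deposited. Rescaled means were 3.31 ± 0.0805, 3.03 ± 0.152 and 2.68 ± 0.0395 TPM (SD, n = 3 each) with no overlap between groups. The log2 fold change of TPM + 1 with dMTS was -0.17 as deposited (limma adjusted p = 0.604) and -0.23 rescaled (SE 0.04, limma adjusted p = 0.0151). Voom on rescaled estimated reads, with no added TPM, gave -0.30. The call was lost without eGFP replicate 2 (limma adjusted p = 0.0726), dMTS replicate 2 (0.0520) or dMTS replicate 3 (0.0682). With full-length the rescaled value was -0.10 (limma adjusted p = 0.484).

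HOXB13 and SPDEF, the prostate lineage factors, were not called in any of the 3 comparisons under either scaling. HOXB13 (chromosome 17, 48724763 to 48728750, ENSG00000159184) stood at 288, 286 and 259.7 TPM with eGFP, 263, 263 and 284 with full-length and 244, 324 and 267 with dMTS. Rescaled, its 3 dMTS libraries lay below its 3 eGFP libraries, at 267 ± 2.24 against 282 ± 6.96 TPM (SD, n = 3), a log2 difference of -0.08 (95% interval -0.14 to -0.01, limma adjusted p = 0.124). As deposited that difference was -0.01. SPDEF (chromosome 6, 34537802 to 34556333, ENSG00000124664) stood at 5.40, 5.49 and 5.31 TPM with eGFP, 5.21, 5.44 and 5.64 with full-length and 5.10, 6.87 and 5.60 with dMTS. Its rescaled log2 difference between dMTS and eGFP was 0.03 (95% interval -0.07 to 0.12). The ratio of SPDEF to FOXA1 ranged from 0.0236 to 0.0262 over the 9 libraries, and the groups overlapped.

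A test for any difference among the 3 groups was also made. As deposited limma's moderated F test called 0 of the 10 genes and 0.0831% of all genes. Rescaled it called GATA2 (adjusted p = 0.0173), EPCAM (0.0305) and GRHL2 (0.0427), beside 2.4% of all genes, and KRT19 had an adjusted p = 0.0834.

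Across the 9 rescaled libraries some pairs of luminal genes moved together and others apart. EPCAM ran against GRHL2 (Pearson r = -0.96) and GATA2 (-0.93), and KRT18 against GRHL2 (-0.89). GATA2 ran with GRHL2 (0.89), KRT19 (0.87) and HOXB13 (0.85), KRT8 with KRT19 (0.83) and KRT18 with EPCAM (0.82). These values describe 9 libraries in 3 groups that share their group differences and their scaling.

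The protein-coding genes whose rescaled pattern was most like that of each called gene were named by the highest Pearson r over the 9 libraries. For GATA2 they were SAMD11, RHBDF1 and DUSP2 (r = 0.99 each). For EPCAM they were PERP, RSL24D1 and CMBL (0.99, 0.98 and 0.98), for GRHL2 ZSCAN30, LAMC1 and HERC3 (0.99, 0.98 and 0.98), and for KRT19 TMEM86A, CACFD1 and TTC39A (0.97, 0.96 and 0.96). PERP encodes a desmosome-linked membrane protein, LAMC1 the laminin gamma-1 chain and DUSP2 a phosphatase of MAP kinases. Rescaled log2 fold changes with dMTS were -0.68 for SAMD11, -0.44 for RHBDF1, -0.86 for DUSP2, 0.19 for PERP and -0.43 for LAMC1. They were 0.24 for RSL24D1, 0.16 for CMBL, -0.17 for ZSCAN30 and -0.37 for HERC3. For TMEM86A, CACFD1 and TTC39A they were -0.16, -0.15 and -0.15. The picks matched called genes over the same 9 libraries, so their direction follows from the choice and is not a separate result.

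Of 25 other junction and adhesion genes 19 were tested against eGFP. None was called with full-length or as deposited. With dMTS after rescaling 2 fell: F11R, which encodes the tight junction protein JAM-A (-0.11, limma adjusted p = 0.0328), and EVPL, which encodes the cornified envelope protein envoplakin (-0.20, 0.0338). Over all tested genes 9.39% were called in that fit, 6.06% lower, so the count is near the background. The list's median rescaled log2 fold change with dMTS was -0.01, beside 0.01 over all tested genes. CDH1 and EPCAM are not part of this list.

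Genes linked to GRHL2 and epithelial splicing were called in both directions with dMTS after rescaling. Of 15 tested, 2 rose and 4 fell, beside 3.33% higher and 6.06% lower over all tested genes, and none was called as deposited or with full-length. The splicing regulator ESRP2 (-0.19, limma adjusted p = 0.0163), the zinc finger factor OVOL1 (-0.20, 0.0342), the ETS factor ELF3 (-0.13, 0.0318) and the mucin MUC1 (-0.21, 0.0429) fell. The transport protein MAL2 (0.25, 0.0151) and the surface antigen CD24 (0.22, 0.0349) rose. The median rescaled log2 fold change was -0.04 with dMTS and -0.05 with full-length.

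Among 25 further luminal and endodermal transcription factors 12 were tested, of which 2 rose and 3 fell with dMTS after rescaling, beside 3.33% higher and 6.06% lower over all tested genes. None was called as deposited or with full-length. SOX9, a factor of progenitor and ductal epithelium, was at 6.499 ± 0.263 TPM with eGFP, 7.81 ± 0.580 with full-length and 10.2 ± 1.89 with dMTS (SD, n = 3 each). Its log2 fold change with dMTS was 0.57 as deposited (SE 0.12, limma adjusted p = 0.0643) and 0.50 rescaled (SE 0.05, limma adjusted p = 0.00591). XBP1, a factor of the secretory stress response, rose by 0.22 (limma adjusted p = 0.0103). TBX3 (-0.27, 0.0142), HOXA13 (-0.23, 0.0166) and PITX1 (-0.21, 0.0295), all developmental factors, fell. The list's median was 0.01, the same as over all genes to 2 decimals.

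Neuroendocrine genes were mostly too low in TPM to test. Of 14 found in the table, 11 stayed under 1 TPM in every library and 2 were tested. The tested genes ENO2 and DLL3 averaged 2857 and 630 estimated reads per library. ENO2 stood at 8.73 ± 0.631, 8.23 ± 0.307 and 9.74 ± 1.06 TPM and DLL3 at 1.93 ± 0.0752, 1.96 ± 0.0897 and 2.23 ± 0.231 TPM with eGFP, full-length and dMTS (SD, n = 3 each), and neither was called. The 2 most abundant mesenchymal genes were FN1, at 3.10 ± 0.479, 2.92 ± 0.430 and 3.36 ± 0.906 TPM, and ITGA5, at 2.84 ± 0.179, 2.76 ± 0.0290 and 3.31 ± 0.678 TPM.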

How the data were processed

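The authors deposited 1 table of TPM values, per the file headers 1 column per library, with each column summing to 1000000. Per the submitters' processing notes the aligner was STAR and the build GRCh38; for the quantifier and annotation nothing is stated in the sources used. The length column equals genomic span. TPM times length was a whole multiple (within 0.01) of 1 step per library for 72.3% to 74.9% of values under 20 reads, and these steps gave the estimated reads, which carry no counting interval. Genes with at least 1 TPM in at least 3 of 9 libraries (13231) were fitted as log2(TPM + 1) in limma 3.58.1 (R 4.3.3) with the eBayes trend, 3 groups and no covariate; two-sided p-values got Benjamini-Hochberg adjustment across every tested gene, and an adjusted p under 0.05 is a call. Rescaling divided each library by its median ratio to the geometric means. Ratios of 2 genes used exact permutation tests (scipy 1.17.1). Exon lengths came from GENCODE release 29 (GRCh38). The 10 genes and all lists were chosen with earlier results of these data known. Named list genes were up to 4 called genes per direction with the largest change, or the 2 most abundant where none was called; like genes were the 3 with the highest Pearson r. Alternatives were other pseudocounts and filters, TPM without OGDHL and mitochondrial genes, a replicate block, 6 libraries only, robust eBayes, array weights (estimated gene by gene, since the REML estimate did not converge), voom (24060 genes tested) and leaving out each library.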

Additional observations from a re-analysis of the deposited data

How the results depend on the processing

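The number of luminal genes called for dMTS against eGFP moved with the scaling, the tool and the libraries used. From 0 of 10 as deposited the count went to 4 rescaled (9.39% of all genes called), 5 with OGDHL and the mitochondrial transcripts left out of the TPM total (9.71%), 5 by voom on estimated reads without rescaling (7.43%) or with it (9.12%), and 6 rescaled with array weights (44.9%). Voom also changed the genes tested, the depth scaling and the weighting, so these cannot be told apart. The array weights are a fallback estimate, since REML did not converge, and may call too freely. Leaving out 1 library gave 0 to 1 as deposited (1, GATA2, without dMTS replicate 2, with 0.636% of all genes). Rescaled it gave 1 to 4, with shares from 0.395% without eGFP replicate 2 to 17.9% without dMTS replicate 1. Array weights called 6 for full-length against eGFP (17% of all genes), and 4 for dMTS against full-length (30.4%), where leaving out 1 library gave 0 to 1; for full-length against eGFP it gave 0. The F test called 0 as deposited, 3 rescaled and 2 without OGDHL and mitochondrial genes; leaving out 1 library gave 0 to 3. Pseudocounts of 0.1 or 5, no filter, a mean of at least 5 TPM, 6 libraries only and robust eBayes kept 0 called in all 3 comparisons. A mean of at least 5 TPM leaves KRT19 and GRHL2 untested. GATA2, GRHL2, KRT19 and EPCAM kept their direction for dMTS against eGFP in each setting run for them. HOXB13, called there with array weights alone, ranged from -0.12 to 0.08. Replicate numbers did not pair libraries (correlations of deviations -0.46 to 0.11, at most 1 of 3 libraries closest to its own number). With the replicate block the count for dMTS against eGFP was 0 as deposited, with 13 of all genes called instead of 68, and 1 rescaled (GATA2, limma adjusted p = 0.0452), with 99 instead of 1242. Of the within-library ratios, 1 of 15 moved by more than 1 SD with 1 TPM added to both genes: KRT8 to KRT18 for full-length, at -0.13.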
